A study of Mus musculus with 10 samples.

Results

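At 412 of 1728 long intergenic non-coding RNA (lincRNA) exon loci (23.8%) the probes named for both strands of the DNA were flagged as detected. Each of the 1728 loci carried 1 microarray probe named + (plus strand) and 1 named - (minus strand), and the 412 loci were chosen by the detection flag of the scanner software. A locus was kept when the probes of both strands were well above background on 9 or 10 of the 10 arrays, so the detection rates and signal levels given here describe that choice and were not tested. On an array 10.9% to 36.4% of the negative control spots carried the same flag, so the flag alone does not show RNA from a strand. The sizes of changes between tissues, after treatment and in culture were not used to choose the loci. The rule still left out any strand below background on more than 1 array, such as both brown fat arrays, which limits the changes that could be seen. The locus names give the mouse build (mm9) and a number, and the files pair them with neither coordinates nor probe sequences, so the loci are named only by number. The labels do not say whether + and - refer to the genome or to a transcript model.

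LincRNAs are transcripts of regions between protein-coding genes, are mostly present at low levels, and are often restricted to a tissue or a stage of differentiation. Transcription of both strands of a locus can come from overlapping antisense genes, from divergent promoters or from enhancers, and the transcripts of the 2 strands may rise together or apart. Brown fat burns lipid to produce heat and white fat stores it, and stimulation of the β3-adrenergic receptor makes some white fat cells take on features of brown fat cells. Labelled cRNA keeps the strand of the RNA it was copied from, so a probe for each strand reads that strand alone as far as the labelling keeps it.

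The study used 1-colour Arraystar Mouse LncRNA V2.0 arrays with Cy3-labelled cRNA made from total RNA. Wild type mice on chow had received daily intraperitoneal injections over 7 days, of saline or of 1 mg/kg CL316,243 (CL), an agonist of the β3-adrenergic receptor. Saline brown fat, saline white fat and CL-treated white fat were measured on 2 arrays each, and wild type brown adipocytes in culture on 1 array each at days 0, 3, 5 and 7 of differentiation. The labels call the tissue arrays biological replicates but do not say whether each was 1 mouse, nor which depots were taken, nor where the cultured cells came from, so p-values measure only the spread between these samples. Tissue was measured in bulk, so fewer cells of a type and less RNA per cell cannot be told apart.

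Signal levels are on the log2 scale, as background-subtracted signal from which the array's 75th percentile was taken off, so that 0 is the level of a probe at that percentile. Between 55.2% and 78.3% of 59709 probes were well above background on an array, and 10.9% to 36.4% of the negative control spots carried the same mark. In saline-treated fat that share of probes was 55.2% and 67.8% on the brown fat arrays and 74.0% and 77.3% on the white fat arrays. All 6 tissue arrays belonged to 1 scan and the 4 culture arrays to another, so levels in tissue and culture also differ by scan. In the tissue scan brown fat lay in slide rows 1 and 2 and saline white fat in rows 3 and 4 of 1 column and CL-treated white fat in another column, so tissue and row, and treatment and column, cannot be told apart. Only 2 of 43 marker genes of fat and other cell types were measured under their names. Gk, glycerol kinase, which is active in brown adipocytes, lay at 0.59 and 0.80 in brown fat, -1.79 and -1.67 in saline white fat, -1.10 and -1.10 after CL and -0.27, -0.84, -0.94 and -0.41 on days 0, 3, 5 and 7. Ccl21b, a chemokine of lymphoid tissue with near-identical gene copies and the 1 measured gene of 6 lymphocyte markers, lay at 4.26 and 5.58 in brown fat, 7.72 and 7.49 in saline white fat, 6.16 and 7.10 after CL and -0.85 to -0.50 in culture. Its part in the differences between tissues was not tested.

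Detection of 1 strand said little about detection of the other. The plus strand was detected on at least 9 arrays at 798 loci, of which 412 (51.6%) also had the minus strand detected, and of the 930 loci without plus-strand detection 481 (51.7%) had it. Read the other way, the plus strand was detected at 46.1% of the 893 loci with minus-strand detection and at 46.2% of the 835 loci without it. With 10 arrays needed the shares for the minus strand were 44.6% and 44.6%, and with at least 1 array 88.0% and 87.6%. With at least 5 and at least 8 arrays they were 71.0% against 67.0% and 59.2% against 55.7%. One strand was detected at 867 loci and neither at 449. Under the rule used the shares with and without the other strand were nearly equal, and detection of a probe also depends on how well it hybridizes.

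**Figure D1:**
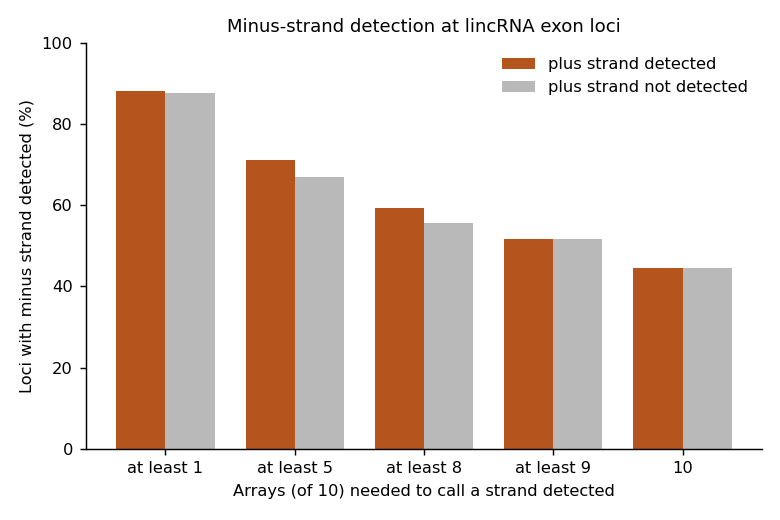
Share of 1728 lincRNA exon loci whose minus strand was detected (%), split by whether the plus strand was detected, for 5 rules on how many of 10 arrays must show a strand well above background. The bars of a pair were furthest apart for the rule of at least 5 arrays, at 71.0% and 67.0%, and stood at 51.6% and 51.7% for at least 9 arrays.

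The levels of the loci on either side of the limit of the rule overlapped. Both strands were well above background on all 10 arrays at 321 loci (77.9%), and 91 loci had a strand that missed 1 array. Of the 97 missing values (1.18% of all probe and array pairs), 63 fell on brown fat array 1, 20 on CL array 1 and 14 on the other 8 arrays. The lower of the 2 strand levels, averaged over arrays, had a median of -2.70 (-3.49 to -1.61) at the 91 loci just inside the rule and of -3.10 (-3.88 to -1.41) at the 103 loci just outside it, whose weaker strand was detected on 8 arrays. It was -1.69 (-3.08 to 3.06) at the 321 loci, a range that takes in most of that of the loci just inside. Over the 824 probes of the 412 loci the mean level ranged from -3.49 to 9.53, with quartiles of -2.10, -1.15 and 0.53, and 269 probes (32.6%) lay above the 75th percentile of the array. The median level of these probes was -0.80 and -0.95 on the brown fat arrays, -1.29 and -1.12 after saline and -1.48 and -1.03 after CL in white fat, and -0.83, -1.03, -1.11 and -0.93 on days 0, 3, 5 and 7.

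The first comparison asked which strands differ between brown and white fat of saline-injected mice. Of the 824 probes, 67 (8.13%) were higher in brown fat and 11 (1.33%) lower, beside 5.53% higher and 4.86% lower among all 43542 probes tested and 7.35% higher and 2.33% lower among the tested lincRNA exon probes. In all 78 probes (9.47%) were called, near the 10.4% of all probes. The balance within the 412 loci lay towards brown fat, like that of lincRNA exon probes in general. The detection rule left out strands below background on both brown fat arrays, which the tested probes could include. The balance and the medians below are thus no result about the 412 loci. On the plus strand 42 probes were higher and 6 lower, and on the minus strand 25 were higher and 5 lower. The median difference of the 824 probes was 0.30 on the log2 scale, 0.39 for the plus strand and 0.16 for the minus strand, where all tested probes had -0.12 and lincRNA exon probes 0.12. With normexp background correction the median of all tested probes was 0.10 and that of the 824 probes 0.27, a gap of the same sign. Without saline white fat array 1 the median of the 824 probes was 0.15, and without array 2 it was 0.42. Calls are at an adjusted p under 0.05 in 1 limma model of the 6 tissue arrays, two-sided and adjusted over all 43542 probes.

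These counts rested on single arrays. Without brown fat array 1 the number of probes higher in brown fat was 1, and without brown fat array 2 it was 9. It was 3 or 6 without saline white fat array 1 or 2, and 180 without either CL array, whose spread enters the shared error. The number of lower probes ran from 0 (without brown fat array 1 or saline white fat array 1) through 1 (without brown fat array 2 or saline white fat array 2) to 59 (without either CL array). Within the 412 loci replicate arrays differed by a median of 0.27 in brown fat, 0.29 in saline white fat and 0.68 in CL-treated white fat (log2), and 39, 11 and 200 of 824 probes were 2-fold apart between replicates.

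Both strands were higher in brown fat at 7 loci (1.70%), beside 1.32% of the 755 tested loci with both strands called the same way, and both were lower at 0 loci. Strands below background on both brown fat arrays had been left out, so the 0 is no result about the 412 loci. The strands were called opposite ways at 0 of the 412 loci (0.132% of tested loci). At 64 loci (15.5%) exactly 1 strand was called and at 341 (82.8%) none. The same shares were not counted over all tested loci, so these 2 are no result about the 412 loci. At an unadjusted p under 0.05 limma had 223 of the 824 probes. That count was not made over all tested probes, so the 223 are no result about the 412 loci. Whether called or not, both strands lay on the same side of 0 at 242 loci (58.7%), against 52.6% of all tested loci, and over the 412 loci the differences of the strands correlated at 0.19 (0.14 over all 755), where both strands come from the same 4 arrays. The tested loci include strands below background on more than 1 array, so these gaps are no result about the 412 loci. Without any 1 saline array the number of loci with both strands higher was 0, and without either CL array 28 loci had both strands called the same way.

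At MM9LINCRNAEXON10120 the plus strand was 8.17-fold higher in brown fat. Its plus-strand level was 3.05 and 2.31 in brown fat and -0.35 and -0.36 in saline white fat, -0.12 and 0.82 after CL, and -1.37, 0.02, -0.43 and -0.57 on days 0, 3, 5 and 7. The minus strand was at 1.05 and 0.86 in brown fat, -1.55 and -1.11 in saline white fat, -1.99 and -0.78 after CL, and -1.83, -3.01, -2.12 and -2.09 in culture. On both strands the brown fat arrays lay above all 8 other arrays. The log2 differences were 3.03 (SE 0.46, limma adjusted p = 0.0146) for the plus strand and 2.28 (SE 0.48, limma adjusted p = 0.0317) for the minus strand.

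MM9LINCRNAEXON10164 had strands that moved almost alike. Its plus strand was at 2.78 and 1.96 in brown fat, -0.02 and 0.21 in saline white fat and 0.23 and 0.93 after CL, and its minus strand at -0.61 and -0.73, -3.02 and -2.58, and -2.45 and -1.90. Brown fat lay above all other arrays on both strands here too, since culture levels ran from -0.26 to 0.72 on the plus strand and from -2.47 to -2.10 on the minus strand. The log2 differences were 2.27 (SE 0.44, limma adjusted p = 0.0276) and 2.13 (SE 0.38, limma adjusted p = 0.0227), and the strand difference changed by 0.14 (SE 0.39).

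At MM9LINCRNAEXON10005 the larger difference was on the minus strand, at -0.29 and 0.32 in brown fat, -3.26 and -3.37 in saline white fat, and -4.21 and -2.15 after CL, the -4.21 not being above background. On the log2 scale brown fat was higher by 3.32 (SE 0.65, limma adjusted p = 0.0281). Its plus strand was at -0.69 and -0.70 in brown fat and -2.44 and -2.02 in saline white fat (log2 1.53, SE 0.37, limma adjusted p = 0.0441). MM9LINCRNAEXON11255 had the larger difference on the plus strand, at 0.37 and -0.37 in brown fat and -3.27 and -2.72 in saline white fat (log2 2.99, SE 0.43, limma adjusted p = 0.0125). Its minus strand, at 5.37 and 5.84 against 3.84 and 4.10, differed by 1.63 (SE 0.39, limma adjusted p = 0.0421). Neither locus overlapped between the tissues on either strand.

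MM9LINCRNAEXON11314 was higher in brown fat on both strands but not alike in culture. The plus strand was at 2.04 and 0.86 in brown fat and -1.12 and -1.29 in saline white fat, and below the brown fat levels on each culture array (log2 2.65, SE 0.53, limma adjusted p = 0.0287). The minus strand was at 0.92 and 1.24 in brown fat and -0.84 and -0.69 in saline white fat (log2 1.85, SE 0.36, limma adjusted p = 0.0285), and at 0.92 to 1.18 in culture, which is within the range of brown fat. The remaining loci with both strands higher were MM9LINCRNAEXON11464, by 2.38 and 1.65 on the plus and minus strands, and MM9LINCRNAEXON10763, by 1.70 and 1.77. Each call at the 5 loci described in full was lost without at least 1 of the 4 saline arrays (limma adjusted p up to 0.326), in fits with fewer arrays. The differences themselves kept their sign and much of their size, as for the plus strand of MM9LINCRNAEXON10120, at 2.66 to 3.40, and the minus strand of MM9LINCRNAEXON10005, at 3.02 to 3.63.

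**Figure D2:**
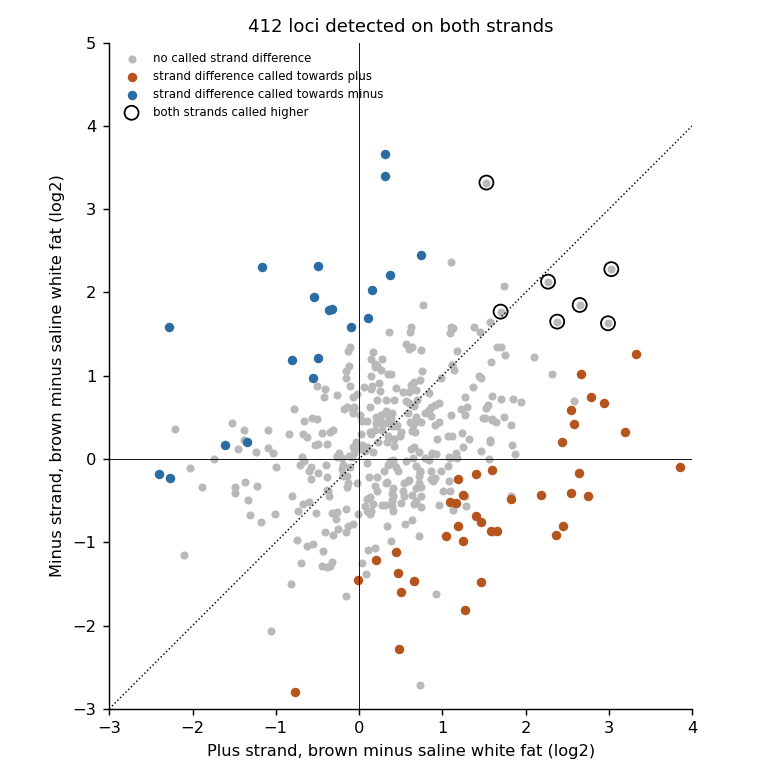
Difference between brown and saline white fat (log2) on the plus strand (horizontal) and the minus strand (vertical) at each of 412 loci, with coloured points for a called change of the strand difference and rings for the 7 loci with both strands called higher. Called strand differences lie far from the dotted line of equal differences, 39 below it and 20 above it.

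Whether the strands of a locus changed unequally was tested on the strand difference, the plus-strand minus the minus-strand log2 level on the same array. The fixed response of each probe and the scaling of the array cancel in its change between groups. The strand difference changed between brown and saline white fat at 59 of the 412 loci (14.3%), beside 16.8% of the 755 tested loci and 68 (19.8%) of the 343 tested loci outside the 412. It moved towards the plus strand at 39 loci (9.47%; 10.9% of tested loci) and towards the minus strand at 20 (4.85%; 5.96%). These shares are near or below the background and are no result about the 412 loci. The sizes of the called changes ran from 1.41 to 3.96, and the median size over the 412 loci, called or not, was 0.80 (0.91 over tested loci).

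Most called strand differences came with 1 strand that moved and another that did not pass the threshold. Of the 59, 17 had only the plus strand called higher, 11 only the minus strand called higher, 8 a strand called lower and 23 no strand called alone. At 41 of the 59 loci the strands lay on opposite sides of 0 and at 18 on the same side. Of the 64 loci with exactly 1 strand called, 36 (56.2%) also had a called strand difference, and at the other 28 an unequal change of the strands was not shown. At an unadjusted p under 0.05 there were 144 loci. Loci chosen for a large strand difference tend to have strands on opposite sides of 0 by that choice alone. The splits of the 59, the 36 of 64 and the 144 were not counted over all tested loci. They describe the called loci and are no result about the loci detected on both strands. Without brown fat array 1, or without either saline white fat array, 0 strand differences were called, without brown fat array 2 there were 20, of which 17 were among the 59, and without either CL array there were 112, which held all 59.

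MM9LINCRNAEXON10114 had the widest change, carried by its plus strand. The plus strand was at 5.59 and 4.67 in brown fat, 1.34 and 1.22 in saline white fat, 1.93 and 2.40 after CL, and 2.05 to 2.47 in culture. Brown fat thus lay above all 8 other arrays by over 2 log2 units, and the plus strand was 14.4-fold higher there than in saline white fat (log2 3.85, SE 0.43, limma adjusted p = 0.00584). The minus strand was at -2.07 and -2.77 in brown fat, -2.19 and -2.45 in saline white fat, -1.13 and -2.24 after CL, and -1.87 to -1.59 in culture, with overlapping tissue groups (log2 -0.10, SE 0.48, limma adjusted p = 0.91). The strand difference changed by 3.96 (SE 0.55, limma adjusted p = 0.0174).

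MM9LINCRNAEXON10749 was the reverse case, with the change on the minus strand. The minus strand was at 4.97 and 4.25 in brown fat, 0.85 and 1.05 in saline white fat, 1.18 and 1.98 after CL, and 1.23 to 1.40 in culture (12.7-fold, log2 3.66, SE 0.44, limma adjusted p = 0.00772). The plus strand was at -2.72 and -2.80 in brown fat, -3.33 and -2.80 in saline white fat, and -3.53 and -2.70 after CL (log2 0.31, SE 0.42, limma adjusted p = 0.668). Only the minus strand separated brown fat from the other arrays, and the strand difference changed by -3.36 (SE 0.38, limma adjusted p = 0.00874). In brown and saline white fat the plus-strand levels lay within the range of weaker strands just inside the detection rule (-3.49 to -1.61). So did the minus-strand levels of MM9LINCRNAEXON10114 there. Whether background hid a change on these strands was not tested.

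At MM9LINCRNAEXON11950 the strands lay on opposite sides. The plus strand was at -4.36 and -2.91 in brown fat, the -4.36 not being above background, and at -1.22 and -1.50 in saline white fat, so that it was measured on 1 of the 2 brown fat arrays (log2 -2.28, SE 0.57, limma adjusted p = 0.0473). The minus strand was at -0.98 and -1.34 in brown fat and -2.97 and -2.54 in saline white fat (log2 1.59, SE 0.44, limma adjusted p = 0.0595), which did not pass the threshold. The strand difference was -3.38 and -1.56 in brown fat and 1.75 and 1.04 in saline white fat, a change of -3.87 (SE 0.63, limma adjusted p = 0.018). With normexp background correction the change was -1.68.

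MM9LINCRNAEXON11373 also had strands on opposite sides, though only the minus strand was called. The minus strand was at 0.87 and 0.44 in brown fat, -1.72 and -1.59 in saline white fat, -1.94 and -0.68 after CL, and -1.45 to -1.13 in culture (log2 2.31, SE 0.48, limma adjusted p = 0.0317). The plus strand was at 0.74 and 0.78 in brown fat, 2.11 and 1.73 in saline white fat, 2.31 and 1.84 after CL, and 3.60 to 4.57 in culture (log2 -1.16, SE 0.37, limma adjusted p = 0.0845). Brown fat was the lowest group on the plus strand and the highest on the minus strand, with a strand change of -3.47 (SE 0.61, limma adjusted p = 0.0181).

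MM9LINCRNAEXON10344 and MM9LINCRNAEXON12067 moved towards the plus strand. The plus strand of MM9LINCRNAEXON10344 was at 0.66 and 0.13 in brown fat and -2.24 and -1.69 in saline white fat (log2 2.36, SE 0.43, limma adjusted p = 0.0233), and its minus strand at -1.04 and -0.99 against 0.06 and -0.27 (limma adjusted p = 0.146). For MM9LINCRNAEXON12067 the plus strand was at 2.20 and 1.36 against -1.07 and -0.26 (log2 2.45, SE 0.58, limma adjusted p = 0.0418), and the minus strand at -1.18 and -1.40 against -0.32 and -0.65 (limma adjusted p = 0.24). Their strand differences changed by 3.27 (SE 0.54, limma adjusted p = 0.018) and 3.26 (SE 0.80, limma adjusted p = 0.0407). Of these 6 loci, each lost its call without brown fat array 1 and without either saline white fat array, and 4 of them also without brown fat array 2 (limma adjusted p = 0.0521 to 0.208 over the lost calls). The changes kept their sign in these fits with fewer arrays: that of MM9LINCRNAEXON10114 was 3.85 to 4.07 and that of MM9LINCRNAEXON10749 -3.68 to -3.04, while that of MM9LINCRNAEXON11950 ran from -4.78 to -2.96.

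**Figure D3:**
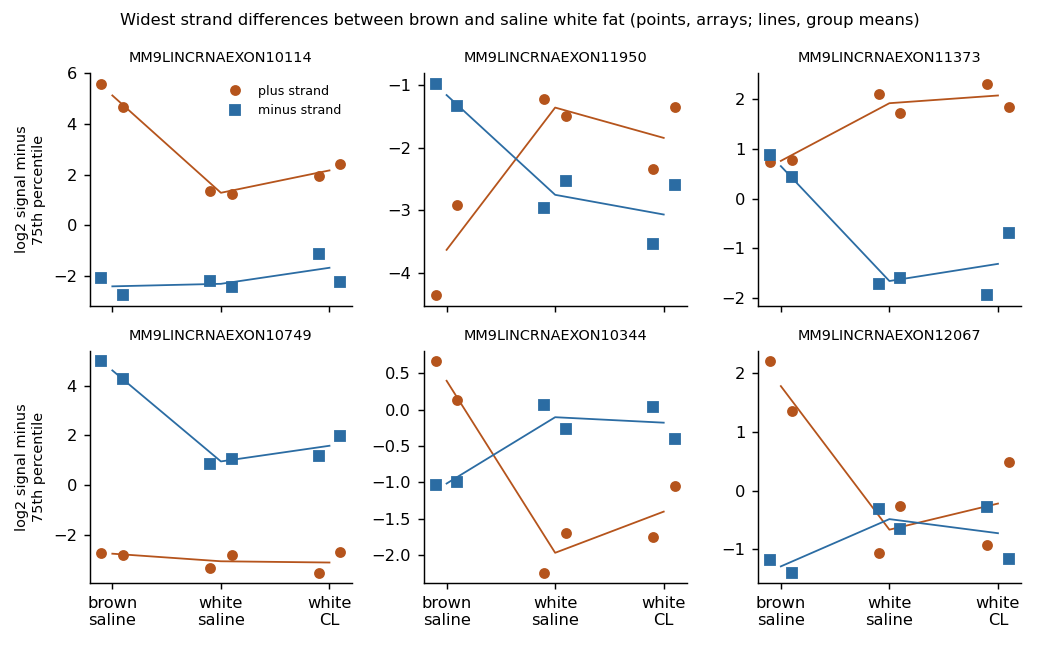
Signal level (log2 minus the 75th percentile of the array) of the plus strand (circles) and minus strand (squares) on each of 6 tissue arrays at the 6 loci with the widest called strand differences between brown and saline white fat, with lines through the means of the 2 arrays of a group. Only changes along a line can be compared between strands, since 2 probes differ in response; at MM9LINCRNAEXON10114 the plus strand passes from 5.59 and 4.67 in brown fat to 1.34 and 1.22 in saline white fat while the minus strand stays between -2.77 and -1.13.

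The second comparison asked what 7 days of CL changed in white fat. Neither a strand nor a strand difference was called at any of the 412 loci: 0 of 824 probes and 0 strand differences passed, beside 0% of all 43542 probes and 0% of the 755 tested loci (limma). At an unadjusted p under 0.05 there were 14 probes and 17 strand differences, and the median difference of the 824 probes was -0.02 (-0.08 over all tested probes). Neither count was made over all tested probes or loci, so the 14 and 17 are no result about the 412 loci. Both CL arrays lay beyond both saline arrays for 193 probes (23.4%), beside 28.0% of all tested probes. They did so the same way on both strands at 12 loci (2.91%), 10 higher and 2 lower, beside 4.50% of tested loci. The median size of the change of the strand difference after CL was 0.33 (0.42 over tested loci), and single replicate arrays were a median of 0.50 apart in it after CL and 0.27 after saline. Without CL array 2 there were 4 called strand differences.

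The smallest adjusted p-values belonged to MM9LINCRNAEXON11365. Its minus strand was at -2.32 and -1.17 after saline and 0.43 and 0.75 after CL, beside 0.47 and 0.94 in brown fat, so that the CL arrays stood near brown fat and apart from both saline arrays (log2 2.33 for CL, SE 0.47, limma adjusted p = 0.456). Its plus strand was at -2.17 and -1.68 after saline, -1.69 and -1.15 after CL, and -1.38 and -0.98 in brown fat. The strand difference changed by -1.83 after CL (SE 0.38, limma adjusted p = 0.282), which did not pass. Between brown and saline white fat the minus strand was higher by 2.45 (SE 0.47, limma adjusted p = 0.0275) and the strand difference changed by -1.71 (SE 0.38, limma adjusted p = 0.0326), a comparison that shares the saline white fat arrays with that of CL.

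Among the 10 loci with both strands above saline after CL, MM9LINCRNAEXON10763 was ranked first, by the smaller of its strand differences. Its plus strand was at 1.74 and 1.75 after saline and 2.87 and 2.09 after CL, and its minus strand at 4.02 and 4.14 against 5.41 and 4.61 (log2 0.73 and 0.93, limma adjusted p = 0.95 and 0.913). At MM9LINCRNAEXON12102 the differences were 0.68 and 0.73 and at MM9LINCRNAEXON11384 0.64 and 1.52 on the plus and minus strands. CL array 1 was the higher array of the pair on the minus strand at all 3 loci. The 2 loci with lower values after CL were MM9LINCRNAEXON10689, at -0.41 and -0.36, and MM9LINCRNAEXON11018, at -0.15 and -0.47, its minus strand being above background on 1 of the 2 CL arrays.

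Set against brown fat, CL-treated white fat had 19 of 824 probes lower (2.31%; 1.51% of all probes tested) and 4 higher (0.485%; 1.98%), 23 in all (2.79%; 3.49%). Tissue and treatment both differ in this comparison, and it uses the same brown fat arrays as the first. The limit that the detection rule sets on the balance holds here too. Both strands were lower at 2 loci, MM9LINCRNAEXON10120 (-2.33 and -2.34, limma adjusted p = 0.042 and 0.046) and MM9LINCRNAEXON11255 (-2.61 and -2.16, limma adjusted p = 0.0263 and 0.0336), beside 0.530% of tested loci with both strands called the same way. The strands were called opposite ways at 0 loci (0.132% of tested loci). The strand difference changed at 19 loci (4.61%; 5.96% of tested loci), towards the plus strand at 8 (2.12% of tested loci) and towards the minus strand at 11 (3.84%). Of the 6 loci with the widest strand change in saline-treated fat, MM9LINCRNAEXON10114 changed by -3.70 here, MM9LINCRNAEXON10749 by 2.67 and MM9LINCRNAEXON11950 by 3.70 (limma adjusted p = 0.0263, 0.024 and 0.0272). At MM9LINCRNAEXON11950 the plus strand on brown fat array 1 and the minus strand on CL array 1 were not above background, so the size of that change rests on values that are only bounds. The count of probes was 0 or 2 without brown fat array 1 or 2, 8 without either saline white fat array and 199 without CL array 2, and the count of strand differences was 0 without any 1 saline array and 59 without CL array 2.

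The third question was how the strands changed as brown adipocytes differentiated, with 1 array per day and therefore no test and no replicate check. Raised and lowered here mean a difference from day 0 of at least 2-fold, in 1 direction, on each of days 3, 5 and 7. Of the 824 probes 23 (2.79%) were raised and 29 (3.52%) lowered, beside 5.35% and 6.20% of all measured probes. The detection rule left out strands below background on more than 1 array, which the measured probes could include. The lower shares of raised and lowered probes, and the share of loci with both strands moved below, are thus no result about the 412 loci. The balance of raised and lowered probes turned with the scaling: it was 33 and 27 with quantile normalization, 37 and 21 with the median of each array as the scale, 24 and 24 in the authors' value table and 15 and 21 with normexp correction. Raised probes numbered 9 on the plus and 14 on the minus strand, and lowered probes 15 and 14. Both strands were raised at 3 loci and lowered at 4, which is 7 of 412 beside 1.21% of measured loci, and at 38 loci (9.22%) exactly 1 strand moved. The share with exactly 1 strand moved was not counted over all measured loci, so it is no result about the 412 loci. The median change of the 824 probes was -0.19, -0.23 and -0.10 on days 3, 5 and 7, near that of all probes (-0.16, -0.27 and -0.13).

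The plus strand of MM9LINCRNAEXON11442 moved furthest. It was at 3.13 on day 0 and at 7.74, 7.43 and 7.93 on days 3, 5 and 7, a 27.7-fold difference at day 7, and at 6.05 to 7.23 on the 6 tissue arrays. The minus strand went from -2.04 to -0.27, -0.09 and 0.37. Both strands were therefore raised by day 3, with the larger change on the plus strand.

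At MM9LINCRNAEXON11268 the plus strand went from 1.73 on day 0 to 4.08, 4.63 and 4.67 and the minus strand from -0.54 to 1.23, 1.64 and 1.04. At MM9LINCRNAEXON11365 the minus strand went from -3.48 to -1.25, -0.45 and 0.31, a day-by-day increase, and the plus strand from -1.43 to -0.33, -0.05 and -0.21. Under normexp correction its day 7 changes were 2.16 on the minus strand and 0.89 on the plus strand, which misses the 2-fold rule. The minus strand of this locus is the one that was higher in brown than in saline white fat. MM9LINCRNAEXON12060 was raised on the plus strand, from -2.23 to -1.13, -0.86 and -0.84, and its minus strand went from 3.53 to 4.42, 4.85 and 5.28, which missed the 2-fold rule on day 3.

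Of the 4 loci with both strands lowered, MM9LINCRNAEXON10142 had a plus strand that went from 5.15 on day 0 to 3.86, 3.61 and 3.06 and a minus strand that went from 0.84 to -0.58, -1.11 and -1.44. At MM9LINCRNAEXON11495 the plus strand went from -0.34 to -2.14, -1.72 and -2.02 and the minus strand from 5.04 to 2.92, 3.48 and 3.05. The strands of both loci kept a nearly fixed difference, whose change from day 0 was 0.13 to 0.41 and 0.19 to 0.33. MM9LINCRNAEXON10544 (plus strand -0.42 to -2.09, -2.05 and -1.68; minus strand 2.26 to -0.16, 0.14 and 0.56) and MM9LINCRNAEXON11012 (plus strand 6.37 to 4.61, 4.92 and 5.19; minus strand 0.50 to -1.74, -1.72 and -1.75) were lowered by day 3 as well. Under normexp correction the plus strand of MM9LINCRNAEXON10544 changed by -0.90 at day 7, which misses the 2-fold rule. In each of the 4 loci the day 0 array held the highest of the 10 levels on both strands.

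The strand difference moved 2-fold from day 0 on each later day at 41 loci (9.95%; 12.8% of measured loci). It moved towards the plus strand at 19 and towards the minus strand at 22. The limit that the detection rule sets on shares in culture holds here too. The loci described next had the largest moves when each was ranked by the smallest of its moves on days 3, 5 and 7. MM9LINCRNAEXON10979 had a minus strand that went from -2.56 to 0.52, 0.73 and 0.56 while its plus strand stayed between -1.25 and -0.63. At MM9LINCRNAEXON10503 the minus strand went from 0.69 to 3.24, 3.20 and 3.94 and the plus strand from -1.27 to -1.82, -2.20 and -1.35. At both loci the shift was on the minus strand and most of it was present by day 3. At MM9LINCRNAEXON11054 the plus strand was raised, from -2.54 to -1.37, -0.53 and -1.43, while the minus strand was at 0.82 on day 0 and between -0.37 and -0.10 later.

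**Figure D4:**
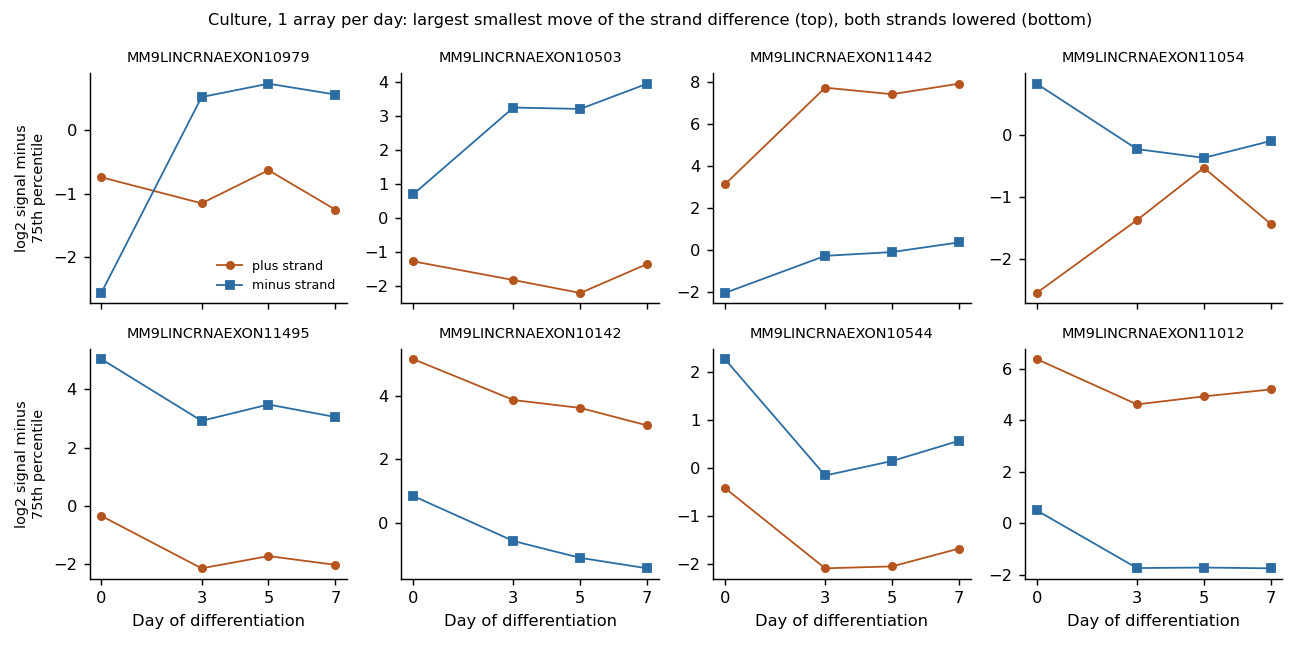
Signal level (log2 minus the 75th percentile of the array) of the plus and minus strands against the day of differentiation, 1 array per day with no error estimate, at the 4 loci ranked first by the smallest move of the strand difference over days 3, 5 and 7 (top row) and the 4 loci with both strands lowered (bottom row). Most of each move is present by day 3, as at MM9LINCRNAEXON11442, where the plus strand rises from 3.13 to 7.74.

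The tissue arrays and the culture arrays share no sample, so the strand changes can be set side by side. The change of the strand difference from saline white to brown fat and that from day 0 to day 7 lay on the same side of 0 at 232 of the 412 loci (56.3%), at 400 of the 727 loci with both values (55.0%), and at 36 of the 59 loci called in the tissues (61.0%). Over the 412 loci they correlated at 0.11, where all points come from the same saline arrays and the same day 0 and day 7 arrays. The loci called in tissue thus moved the same way in culture in little more than the share seen over all loci.

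Of the 8 loci with both a called strand difference in tissue and a 2-fold move in culture, 6 moved the same way. Neither count was made over all loci with both values, so the 6 of 8 does not show that tissue and culture moved alike. The 8 loci are named here after their values were seen. MM9LINCRNAEXON10003, MM9LINCRNAEXON10032 and MM9LINCRNAEXON10187 moved towards the plus strand, by 2.93, 2.23 and 1.45 in brown against saline white fat (limma adjusted p = 0.0296, 0.0181 and 0.0476) and by 1.69, 2.50 and 1.87 at day 7. Towards the minus strand moved MM9LINCRNAEXON10077, MM9LINCRNAEXON11365 and MM9LINCRNAEXON11750, by -1.79, -1.71 and -2.22 in tissue (limma adjusted p = 0.031, 0.0326 and 0.0181) and -1.42, -2.57 and -2.30 at day 7. The exceptions were MM9LINCRNAEXON11069, with 2.31 in tissue and -1.70 at day 7, and MM9LINCRNAEXON11950, with -3.87 and 1.52.

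Across the 10 arrays the strands of a locus varied together in some loci and apart in others. The correlation of plus-strand and minus-strand levels had a median of 0.33 over the 412 loci, with quartiles of -0.03 and 0.63 and a range of -0.89 to 0.98, and a median of 0.20 over the 343 tested loci outside them. These are descriptions over 10 arrays that share tissues, days and scaling. By the detection rule the loci outside had a strand not well above background on more than 1 array. The gap between the medians of 0.33 and 0.20 is thus no result about the 412 loci. The correlation was above 0.8 at 46 loci (11.2%), below 0 at 112 (27.2%) and below -0.5 at 29 (7.04%). Its median was 0.43 over the 6 tissue arrays and 0.22 over the 4 culture arrays.

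**Figure D5:**
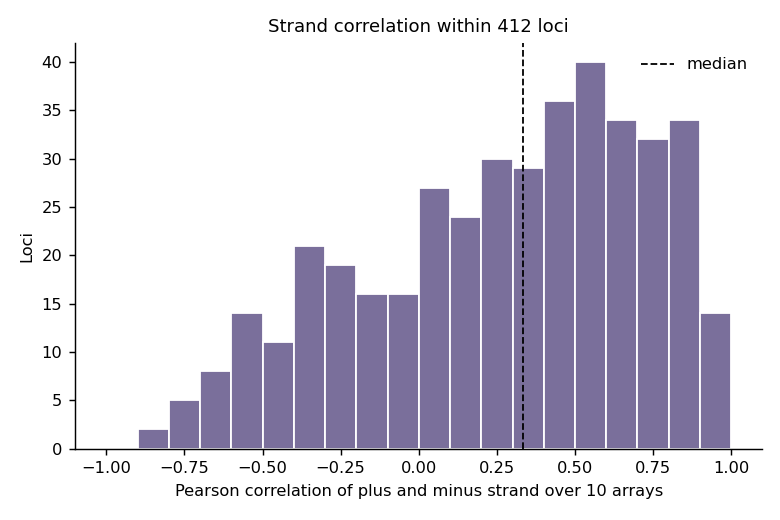
Number of loci, of 412, by the Pearson correlation of plus-strand and minus-strand levels over 10 arrays, in steps of 0.1, with the median of 0.33 as a dashed line. The distribution spans -0.89 to 0.98, with 112 loci below 0.

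The strands that followed each other most closely were those of MM9LINCRNAEXON10823 (r = 0.98), MM9LINCRNAEXON11996 (0.96) and MM9LINCRNAEXON10180 (0.96). At MM9LINCRNAEXON10823 the plus strand was at 1.23 to 2.41 in tissue and went from 2.28 to 3.30 in culture, and the strand difference stayed between 3.33 and 3.68 on all 10 arrays. At MM9LINCRNAEXON11996 both strands were lowest on day 0 (2.18 and -1.89) and highest in white fat (5.14 on saline array 2 and 0.78 on CL array 2). MM9LINCRNAEXON10180 had its highest levels in brown fat on both strands, 7.03 and 6.67 on the plus strand and -0.88 and -1.10 on the minus strand, where neither difference from saline white fat passed the threshold (limma adjusted p = 0.0548 and 0.126).

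The strands that varied most against each other were those of MM9LINCRNAEXON10525 (r = -0.89), MM9LINCRNAEXON11738 (-0.81) and MM9LINCRNAEXON10003 (-0.79). At MM9LINCRNAEXON10525 the minus strand was at 3.19 to 5.22 in tissue and 0.51 to 2.54 in culture, and the plus strand at -0.90 to -0.45 and -0.29 to 0.16. The opposition lies between tissue and culture, which were separate scans, so sample type and scan cannot be told apart. At MM9LINCRNAEXON10003 the plus strand was at -0.41 and -0.87 in brown fat, -1.84 and -2.36 in saline white fat, -2.20 and -1.83 after CL, and -3.07 to -2.21 in culture. Its minus strand was at -2.60 and -3.04, -1.39 and -1.30, 0.39 and -1.04, and -1.24 to 1.19. Here brown fat held the highest plus-strand and the lowest minus-strand levels.

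Loci with consecutive numbers were compared because neighbouring numbers may lie near each other, which the files do not state. Of 93 pairs of consecutive loci among the 412, same-strand levels correlated over the 10 arrays at a median of 0.34 and opposite strands of the pair at 0.28, beside 0.33 for the strands within the first locus of a pair. A correlation above 0.8 was found in 14 of 186 same-strand comparisons (7.53%) and 11 of 186 opposite-strand comparisons (5.91%). The 412 loci held 15 runs of at least 3 consecutive numbers, with 50 loci in all and 5 in the longest. Among all consecutive loci, 26.6% of those that followed a locus detected on both strands were detected on both strands, and 22.3% of those that followed another locus.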

How the data were processed

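Spot intensity (the background-subtracted processed signal) and flags for spots well above background come from the deposited scanner output of Agilent Feature Extraction 11.0.1.1, per the file headers; the submitters' processing notes name version 9.1. A value table deposited by the authors holds log2 values of 18997 probes. Its columns followed the quantile-normalized log2 signal at r of 1.00, and no source used here gives its normalization or centring. It served as an alternative. In R 4.3.3, 1200 negative control spots and 286 outlier spots were left out (0 were saturated), spots of a probe were averaged, and log2 signals were set relative to the 75th percentile of each array. A probe was tested where 1 or more tissue groups had it well above background on each of their arrays (43542, with all 824 of the 412 loci) with limma 3.58.1 (lmFit, eBayes; group means, 3 residual degrees of freedom, prior 4.46) and Benjamini-Hochberg adjustment at 0.05. Strand differences were fitted likewise over 755 loci (prior 3.44). The script was tested on simulated data.

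The loci named are the 5 with both strands called alike and the largest mean difference, the 6 widest called strand differences, the 3 per direction with both strands beyond saline after CL (by the smaller strand difference), the 4 per direction with the largest smallest move over strands and days in culture, the 4 with the largest smallest move of the strand difference over those days, and the 3 highest and 3 lowest strand correlations. The members, the naming rule and the marker lists were chosen with earlier results of these data known. The number of arrays limits the precision. Replicate numbers were not used to pair samples, since no label ties them and each group has 2 arrays: the deviations of same-numbered arrays correlated at -0.02 (brown and saline white fat), -0.08 (brown and CL-treated white fat) and 0.50 (saline and CL-treated white fat). Normexp correction (offset 50) used the median spot signal, since the files hold no mean signal. Other alternatives were quantile and median scaling, filters, array weights, fewer groups or arrays, other detection rules and a 3-fold limit in culture.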

Additional observations from a re-analysis of the deposited data

How the results depend on the processing

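No called difference of a named locus turned direction under the alternatives run, but the balance of raised and lowered probes in culture turned under quantile and median scaling (33 and 27, 37 and 21; 24 and 24 in the value table), and the median difference of all tested probes between brown and saline white fat went from -0.12 to 0.10 with normexp and 0.09 in the value table. Among the values of single loci, the medians and the number of loci under alternatives, 501 kept their side of the threshold or moved within a limit, 72 lost the call and 25 moved further. The limit was the spread for medians. It was a fixed size for culture changes, strand correlations and the number of loci. Some of the 501 could not move. Strand correlations used the same values under other filters, array weights and fewer groups, and scaling to the median cancels in a strand difference. CL differences that stayed uncalled also counted as kept. The 501 is thus no measure of how firm the results are. The main counts were 67 probes higher and 11 lower in brown than in saline white fat, 7 loci with both strands called the same way, 59 strand differences, 0 and 0 after CL, 23 probes and 19 strand differences between CL-treated white and brown fat, and 23 raised probes, 29 lowered probes and 41 moved strand differences in culture.

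Quantile normalization gave 18 lower probes and 11 loci with both strands called. Scaling to the median gave 104 higher and 17 lower probes, 12 loci with both strands called and 37 raised probes in culture. The value table, which lists both strands of 394 of the loci, gave 140 higher and 23 lower probes, 19 loci with both strands called and 56 probes between CL-treated white and brown fat. Normexp gave 44 probes and 41 strand differences between CL-treated white and brown fat, and 15 raised probes and 27 moved strand differences in culture. Of the 59 strand differences, 53 were among 57 called with quantile normalization, 48 among 73 with normexp and 53 among 75 with the value table.

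With no filter there were 16 higher and 3 lower probes, 0 loci with both strands called and 5 strand differences, and against brown fat after CL 3 probes and 0 strand differences. With probes well above background on all 6 tissue arrays there were 18 lower probes and 13 loci with both strands called, and 42 probes and 45 strand differences between CL-treated white and brown fat. Array weights gave 210 higher and 71 lower probes, 35 loci with both strands called and 98 strand differences, and 0 probes and 1 strand difference between CL-treated white and brown fat. The 2 saline groups alone gave 180, 59, 28 and 112. The replicate block gave 20 lower probes, and it moved no other count of calls by over 1.5 times. Loci detected on both strands on 10 arrays (321) gave 11 strand differences between CL-treated white and brown fat. Loci detected on at least 8 arrays (515) gave 20 lower probes, and 35 probes and 29 strand differences between CL-treated white and brown fat. A 3-fold limit in culture gave 8 raised and 12 lowered probes and 13 moved strand differences. The detection flag for positive and significant signal in place of the flag for signal well above background gave 902 loci. For all of these the cause was not tested.

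Leaving out 1 tissue array gave 1 to 180 higher and 0 to 59 lower probes, 0 to 28 loci with both strands called, 0 to 112 strand differences, 0 to 4 strand differences after CL, and 0 to 199 probes and 0 to 59 strand differences between CL-treated white and brown fat. An array left alone in its group was assumed to vary like the other groups. Each strand had 1 probe and the tissue arrays shared 1 slide, so the last probe of a strand and the slide as a block could not be run. Levels near background, as at the loci with a strand that missed 1 array, have compressed differences on the normexp scale, and 10.9% to 36.4% of negative control spots were flagged well above background.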

Other observations

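Exactly 1 strand was lower in brown than in saline white fat at each of 11 loci, and these were singled out after their values were seen. On the minus strand the lower loci were MM9LINCRNAEXON10138 (log2 -2.80, limma adjusted p = 0.0104), MM9LINCRNAEXON10930 (-2.28, 0.0325), MM9LINCRNAEXON10891 (-2.07, 0.0206), MM9LINCRNAEXON10634 (-1.81, 0.0263) and MM9LINCRNAEXON10651 (-1.37, 0.0461). On the plus strand they were MM9LINCRNAEXON11750 (log2 -2.40, limma adjusted p = 0.0165), MM9LINCRNAEXON11950 (-2.28, 0.0473), MM9LINCRNAEXON11217 (-2.27, 0.0269), MM9LINCRNAEXON11692 (-2.10, 0.0352), MM9LINCRNAEXON10077 (-1.61, 0.0359) and MM9LINCRNAEXON11811 (-1.45, 0.0424).

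The other strand did not pass the threshold at any of the 11 loci. It was also below 0 at MM9LINCRNAEXON10138 (-0.77), MM9LINCRNAEXON10891 (-1.06), MM9LINCRNAEXON11692 (-1.15), MM9LINCRNAEXON11217 (-0.23) and MM9LINCRNAEXON11750 (-0.18), and above 0 at the others. The minus strand of MM9LINCRNAEXON10138 was at -4.15 and -3.77 in brown fat and -0.99 and -1.33 in saline white fat, and that of MM9LINCRNAEXON10634 at -3.70 and -3.42 against -1.73 and -1.77. Both of these strands were well above background on 9 of the 10 arrays.

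The value table listed both strands of 394 of the 412 loci (95.6%), 1 strand of 17 and none of 1. It listed both strands of 118 of the 1316 other loci with a probe on each strand (8.97%). The 412 loci were chosen by detection, and how the probes of the value table were chosen was not tested. The gap between these shares is thus no result about the 412 loci.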
